A study of Mus musculus with 9 samples.

Results

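The genes described here encode 10 enzymes that make pyrimidine nucleotides and deoxynucleotides, namely Cad, Dhodh, Umps, Cmpk1, Ctps, Ctps2, Rrm1, Rrm2, Tyms and Dck. They were chosen by name from the pathway, with earlier results of these data known, and all 10 were found among the 32285 genes counted and passed the filter on low counts that left 17173 genes for testing. RNA was sequenced from primary stromal vascular fraction (SVF) cells, the non-adipocyte cells that remain after collagenase digestion of fat, here from subcutaneous fat of wild-type neonatal mice. The 3 groups, of 3 libraries each, were SVF cells differentiated toward adipocytes for 6 days with 25 µM mizoribine (MIZ), SVF cells differentiated for 6 days with the vehicle DMSO, and undifferentiated SVF cells. MIZ blocks IMPDH1 and IMPDH2, the enzymes that commit inosine monophosphate to guanine nucleotides in purine synthesis.

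Pyrimidine synthesis builds the ring on aspartate and carbamoyl phosphate before the ribose is attached. CAD carries out the opening steps in the cytosol, DHODH oxidizes dihydroorotate at the inner mitochondrial membrane with ubiquinone as electron acceptor, and UMPS forms UMP, which CMPK1 phosphorylates on the way to UTP, the substrate of CTP synthase. Deoxynucleotides arise when ribonucleotide reductase, assembled from RRM1 and RRM2, reduces nucleoside diphosphates, when thymidylate synthase (TYMS) methylates dUMP, and when DCK phosphorylates deoxycytidine taken up from outside. Rrm2 and Tyms are classical genes of S phase, and preadipocytes leave the cell cycle as they become adipocytes.

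The libraries held between 28760721 and 55288455 counted reads, and levels are given as CPM, read counts scaled to library size with TMM factors that correct the totals for differences in composition. Differences were tested with edgeR's quasi-likelihood test over all 17173 genes and called when the Benjamini-Hochberg adjusted p was under 0.05. The study describes the libraries of a group as biological replicates, but the labels tie no library to an animal or a culture, so p-values measure the spread between these libraries, part of which may be technical. The labels call every library primary adipocytes, but 5 adipocyte markers (Adipoq, Plin1, Fabp4, Cidec and Retn) differed between the groups. Their summed level was 899 to 1152 CPM with MIZ, 12843 to 13625 CPM with vehicle and 5.06 to 5.26 CPM in undifferentiated cells. Lep, also listed as a marker, had too few counts to be tested. Smooth muscle and pericyte markers summed to 3621 to 5015 CPM with MIZ, 155 to 167 CPM with vehicle and 478 to 580 CPM in undifferentiated cells, and macrophage markers to 452 to 625, 302 to 487 and 2355 to 2616 CPM in the same order of groups. Transcripts encoded by the mitochondrial genome made up 0.686% to 0.836% of counts with MIZ, 3.82% to 5.0% with vehicle and 0.837% to 0.891% in undifferentiated cells.

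The promoters of 5 of the genes are shown because the results below turn on them: Cad and Ctps, which were higher with MIZ than in both other groups, and Tyms, Rrm1 and Rrm2, which were lower in vehicle-treated than in undifferentiated cells. Each line gives the 150 bases before the annotated start in 5′ to 3′ orientation of the gene (RefSeq, GRCm38.p6). Capitals mark CCAAT boxes (CCAAT), E-boxes (CACGTG) and GC boxes (GGGCGG, or CCGCCC where the box lies on the opposite strand).
Cad, chr5:31054630-31054779, plus strand: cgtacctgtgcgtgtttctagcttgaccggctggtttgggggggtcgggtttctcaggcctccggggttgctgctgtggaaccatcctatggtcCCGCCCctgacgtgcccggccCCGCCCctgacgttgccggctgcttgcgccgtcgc
Ctps, chr4:120570277-120570426, minus strand: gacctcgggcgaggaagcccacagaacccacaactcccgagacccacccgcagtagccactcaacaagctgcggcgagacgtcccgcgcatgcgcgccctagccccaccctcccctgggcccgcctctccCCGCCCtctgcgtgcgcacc
Tyms, chr5:30073626-30073775, minus strand: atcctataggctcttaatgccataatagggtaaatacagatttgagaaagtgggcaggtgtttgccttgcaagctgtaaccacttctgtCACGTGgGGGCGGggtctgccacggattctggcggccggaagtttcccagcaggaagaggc
Rrm1, chr7:102441545-102441694, plus strand: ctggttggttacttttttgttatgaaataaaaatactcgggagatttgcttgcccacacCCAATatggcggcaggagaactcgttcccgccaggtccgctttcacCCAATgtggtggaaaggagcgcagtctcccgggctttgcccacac
Rrm2, chr12:24708104-24708253, plus strand: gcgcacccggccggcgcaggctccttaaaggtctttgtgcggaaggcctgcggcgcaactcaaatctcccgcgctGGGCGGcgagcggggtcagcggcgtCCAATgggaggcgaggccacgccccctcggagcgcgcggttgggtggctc

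Promoter windows from 250 bases before to 50 bases after the start were at hand for 9 of the 10 genes, all but Dhodh, and were searched on both strands. CCAAT occurred in the windows of Rrm1 and Rrm2, with its first base 91 and 45 bases before the start of Rrm1 and 50 bases before the start of Rrm2, and it occurred in 37.4% of all 32851 windows. CACGTG, the letters of the E-box, occurred in the window of Tyms, 61 bases before the start, and in 7.15% of all windows. GGGCGG occurred in 7 of the 9 windows (Cad, Umps, Ctps, Cmpk1, Tyms, Dck and Rrm2) and in 35.7% of all windows. The E2F letters TTTGGCGC or TTTCGCGC occurred in none of the 9 windows and in 0.813% of all windows, and the CHR letters TTTGAA in those of Umps and Dck and in 17.9% of all windows. No matches overlapped in the 9 windows, and a match or its absence in a window is only a description of these letters.

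MIZ moved the pathway in both directions. Against vehicle, 6 of the 10 genes were higher with MIZ (Ctps, Rrm2, Cad, Tyms, Umps and Rrm1), 3 were lower (Cmpk1, Dhodh and Dck) and Ctps2 did not pass the test. Of all genes tested, 35.9% were called higher and 35.1% lower in this comparison, so a call by itself does not set a gene apart. The median log2 fold change was 0.35 over the 10 genes and 0.02 over all genes tested, and the 10 genes together summed to 506 to 542 CPM with MIZ, against 359 to 387 CPM with vehicle. A lower value in these bulk libraries can come from fewer cells of a type or from less RNA per cell, which cannot be told apart.

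**Figure D1:**
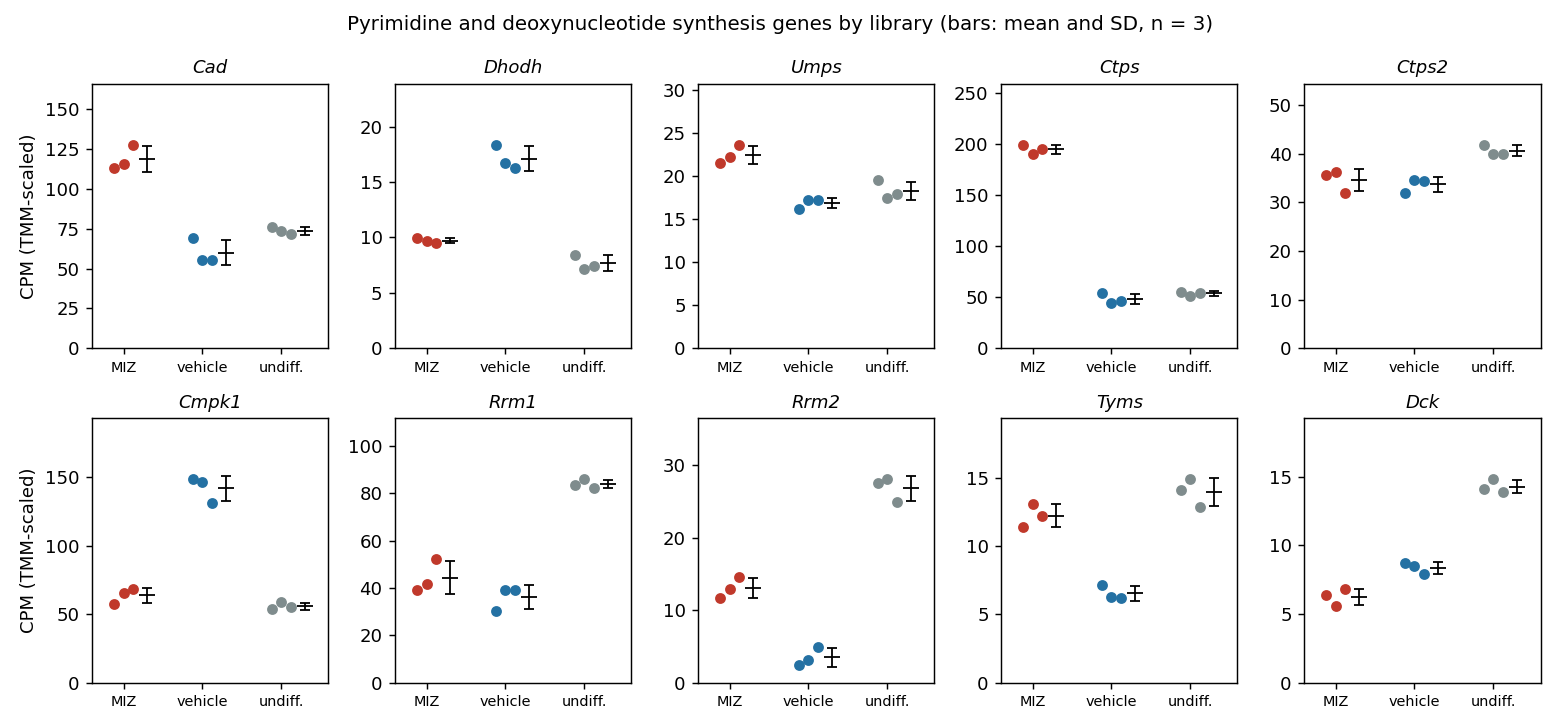
Level of each gene in CPM (TMM-scaled, vertical axis from 0, scales differ) in the 3 libraries of MIZ-treated, vehicle-treated and undifferentiated (undiff.) cells, with the mean and SD beside them. Ctps stood at 191 to 199.7 CPM with MIZ, above every other library, while Rrm2 with MIZ lay between the vehicle and the undifferentiated libraries.

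The steps to UMP did not move together. Cad, which encodes the trifunctional protein of carbamoyl phosphate synthetase, aspartate transcarbamoylase and dihydroorotase (chr5:31054780-31078479), had 113, 116 and 128 CPM in the MIZ libraries, 69.3, 55.6 and 55.1 CPM in the vehicle libraries and 76.4, 73.5 and 71.5 CPM in the undifferentiated libraries. All MIZ libraries lay above all others, and vehicle library 1 was the highest of its group. Cad was 1.99-fold higher with MIZ than with vehicle (log2 0.99 ± 0.09 SE, adjusted p = 1.25e-06) and 1.61-fold higher than in undifferentiated cells (log2 0.69 ± 0.08, adjusted p = 2.82e-05).

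Umps, whose product joins orotate phosphoribosyltransferase to OMP decarboxylase and yields UMP, was also highest with MIZ, by a smaller margin. It had 21.5, 22.2 and 23.6 CPM with MIZ, 16.2, 17.2 and 17.2 CPM with vehicle and 19.5, 17.5 and 17.8 CPM in undifferentiated cells. The MIZ libraries did not overlap with either group, and Umps was 1.33-fold higher with MIZ than with vehicle (log2 0.41 ± 0.06, adjusted p = 0.000181) and 1.23-fold higher than in undifferentiated cells (log2 0.30 ± 0.06, adjusted p = 0.00174). An antisense gene, Gm15829, shares 213 exon bases with Umps, and the strand setting of the counting is not given in the sources used here, so reads of this pair cannot be told apart there. The same holds for Rrm2b, which shares 734 exon bases with the antisense gene Gm49085, and for parts of several genes named below, among them Coq8a, Rb1 and E2f8.

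Dhodh, the mitochondrial step between them, went the other way. Its levels were 9.92, 9.67 and 9.49 CPM with MIZ, 18.4, 16.8 and 16.2 CPM with vehicle and 8.45, 7.15 and 7.46 CPM in undifferentiated cells, so the MIZ libraries lay between the other groups without overlap. Dhodh was 1.76-fold lower with MIZ than with vehicle (log2 -0.82 ± 0.08, adjusted p = 4.83e-06) and 1.26-fold higher than in undifferentiated cells (log2 0.34 ± 0.08, adjusted p = 0.00467). The genes that make or use ubiquinone, the acceptor of DHODH's electrons, were lower with MIZ in 12 of 13 cases and higher with vehicle than in undifferentiated cells in all 13. Coq8a, which encodes an atypical kinase of ubiquinone synthesis, averaged 3.39 ± 0.33 CPM with MIZ and 112 ± 4.93 CPM with vehicle (SD, n = 3 each; log2 -5.05), and Coq5, Coq6 and Coq9 of the same route had log2 fold changes of -2.17, -2.11 and -2.28. The exception was Coq10b, a ubiquinone-binding protein gene, at log2 0.68. All 5 adipocyte markers that could be tested were also lower with MIZ, and the part of this difference in adipocyte content in the Dhodh result was not tested.

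The kinase that turns UMP and CMP into diphosphates followed Dhodh rather than Cad. Cmpk1 had 57.7, 65.8 and 68.2 CPM with MIZ, 148, 146 and 131 CPM with vehicle and 53.5, 58.7 and 55.4 CPM in undifferentiated cells. The MIZ libraries were far below the vehicle libraries and overlapped with the undifferentiated ones. Cmpk1 was 2.22-fold lower with MIZ than with vehicle (log2 -1.15 ± 0.07, adjusted p = 7.92e-08). The difference from undifferentiated cells, log2 0.19 ± 0.07 (adjusted p = 0.0326), was not called when MIZ library 2 or 3 or undifferentiated library 1 or 3 was left out (log2 0.14 to 0.18, adjusted p between 0.0955 and 0.127). A processed pseudogene, Gm5867, matches 592 bases of Cmpk1 transcripts at 96.5% identity, so reads of the 2 may have been exchanged or dropped in counting. Cmpk2, the mitochondrial paralog known for its induction by interferon, varied more between libraries, with 5.32, 4.86 and 2.31 CPM with MIZ, 19.3, 8.41 and 8.21 CPM with vehicle and 2.73, 3.35 and 3.05 CPM in undifferentiated cells. It was lower with MIZ than with vehicle (log2 -1.48 ± 0.36, adjusted p = 0.00326), and vehicle library 1 had more than either other vehicle library.

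Ctps encodes CTP synthase, the enzyme that aminates UTP to CTP with glutamine as nitrogen donor, and was higher with MIZ than in both other groups. It (chr4:120539868-120570276) had 199.7, 191 and 196 CPM with MIZ, 54.2, 44.3 and 46.1 CPM with vehicle and 55.4, 51.1 and 54.3 CPM in undifferentiated cells. The MIZ libraries varied by 2.33% of their mean (coefficient of variation) and the lowest of them had 191 CPM, while the highest of all other libraries had 55.4 CPM. Ctps was 4.06-fold higher with MIZ than with vehicle (log2 2.02 ± 0.07, 95% interval 1.87 to 2.18, adjusted p = 7.86e-10) and 3.64-fold higher than in undifferentiated cells (log2 1.86 ± 0.07, adjusted p = 4.2e-09). Its log2 fold change against vehicle ranked 1199 from the top among the genes tested. A processed pseudogene, Gm16465, matches 1778 bases of Ctps transcripts at 92.3% identity. Of 6 smooth muscle and pericyte markers, 5 were also higher with MIZ than with vehicle and 1, Cspg4, was lower (log2 -2.35), with the sums given above. Acta2 made up most of the sum with MIZ, at 3622 ± 661 CPM, while Rgs5 averaged 1.18 ± 0.22 CPM. The part of cells that express these markers in the Ctps and Cad results was not tested.

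Ctps2, the X-linked paralog that catalyzes the same reaction (chrX:162901238-163032508), had 35.7, 36.2 and 31.9 CPM with MIZ, 32.0, 34.7 and 34.3 CPM with vehicle and 41.9, 40.0 and 39.9 CPM in undifferentiated cells. The MIZ and vehicle libraries overlapped, and the log2 difference of 0.04 had a 95% interval of -0.09 to 0.17 (adjusted p = 0.583). Both differentiated groups were slightly below undifferentiated cells, by log2 -0.23 with MIZ (adjusted p = 0.00533) and -0.27 with vehicle (adjusted p = 0.00163).

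The ratio of Ctps to Ctps2 within each library does not depend on how libraries are scaled. Its log2 was 2.48, 2.40 and 2.61 with MIZ, 0.76, 0.35 and 0.42 with vehicle and 0.41, 0.35 and 0.45 in undifferentiated cells. MIZ exceeded vehicle by 1.99 on the log2 scale, with no overlap, and the exact permutation test gave p = 0.1 (two-sided), the smallest p that 3 against 3 libraries allow. Per kilobase of exon, Ctps stood at 72.2 ± 1.68 CPM and Ctps2 at 9.08 ± 0.61 CPM with MIZ, against 17.8 ± 1.94 and 8.84 ± 0.38 CPM with vehicle (SD, n = 3 each).

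**Figure D2:**
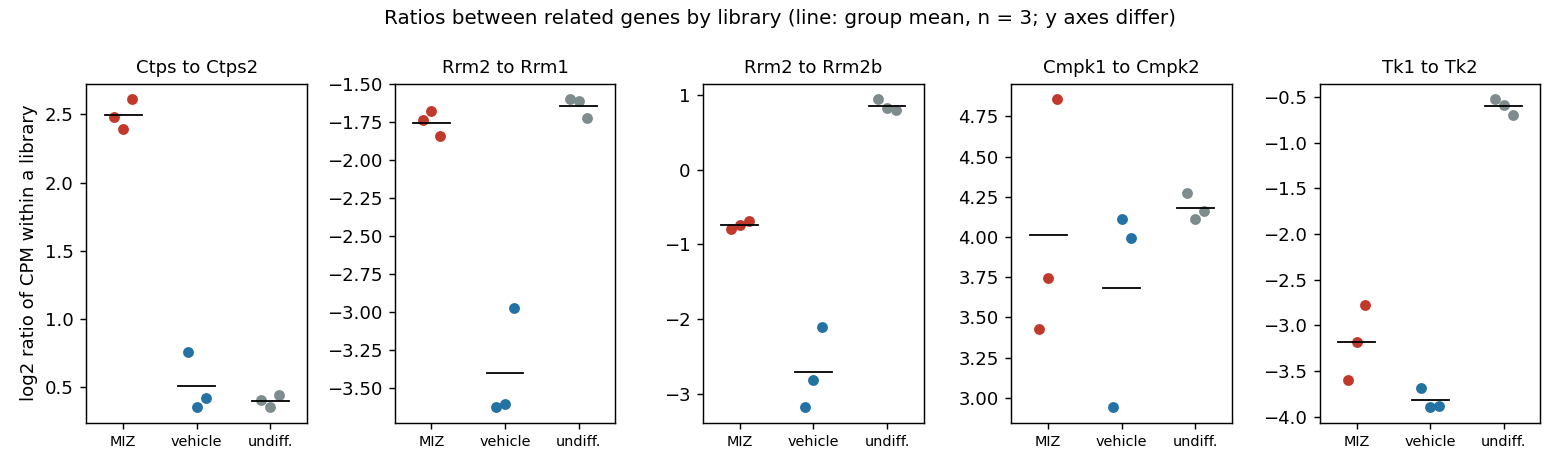
Log2 ratio of the CPM of related genes within each library (vertical axis, scales differ), with group means as lines and 3 libraries of MIZ-treated, vehicle-treated and undifferentiated (undiff.) cells. The ratio of Ctps to Ctps2 averaged 2.5 with MIZ, 0.51 with vehicle and 0.40 in undifferentiated cells, and the ratio of Rrm2 to Rrm1 averaged -1.75, -3.40 and -1.65.

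Ribonucleotide reductase pairs a large catalytic subunit, RRM1, with a small subunit that holds the tyrosyl radical, either RRM2 in S phase or RRM2B, a p53-inducible form used outside S phase. Rrm2 (chr12:24708241-24714146) had 11.7, 13.0 and 14.5 CPM with MIZ, 2.40, 3.18 and 4.96 CPM with vehicle and 27.6, 28.0 and 24.9 CPM in undifferentiated cells. The 3 groups were separate, with MIZ in the middle. Rrm2 was 3.62-fold higher with MIZ than with vehicle (log2 1.86 ± 0.19, adjusted p = 5.81e-06) and 2.05-fold lower than in undifferentiated cells (log2 -1.04 ± 0.17, adjusted p = 0.000226), while vehicle-treated cells were 7.43-fold below undifferentiated cells (log2 -2.89 ± 0.19, adjusted p = 8.4e-08). Vehicle libraries rested on 64, 148 and 223 reads of Rrm2, and 3 processed pseudogenes match parts of its transcripts at 90.6% to 95.5% identity.

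Rrm1 moved much less. It had 39.3, 41.5 and 52.3 CPM with MIZ, 30.3, 39.2 and 39.3 CPM with vehicle and 83.6, 85.8 and 82.4 CPM in undifferentiated cells, so both differentiated groups were far below undifferentiated cells and overlapped with each other, if narrowly. The difference between MIZ and vehicle, log2 0.28 ± 0.12 (adjusted p = 0.048), was 0.14 without MIZ library 3 (adjusted p = 0.251) and 0.17 without vehicle library 1 (adjusted p = 0.13). It also missed the threshold without MIZ library 2 (adjusted p = 0.0534), without vehicle library 2 (adjusted p = 0.0553) and with DESeq2 (adjusted p = 0.0548). Against undifferentiated cells Rrm1 was lower with MIZ (log2 -0.92 ± 0.11, adjusted p = 3.1e-05) and with vehicle (log2 -1.20 ± 0.11, adjusted p = 2.25e-06).

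The balance of the subunits differed between groups. The log2 ratio of Rrm2 to Rrm1, a pair added after the values were seen, was -1.74, -1.68 and -1.84 with MIZ, -3.63, -3.61 and -2.98 with vehicle and -1.60, -1.61 and -1.73 in undifferentiated cells. MIZ and undifferentiated libraries overlapped in this ratio although Rrm2 and Rrm1 each stood lower with MIZ. The difference of MIZ from vehicle was 1.65 (exact permutation test, p = 0.1, the smallest possible) and that of MIZ from undifferentiated cells -0.11 (exact permutation test, p = 0.2).

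Rrm2b did not follow Rrm2. It had 20.3, 21.6 and 23.4 CPM with MIZ, 22.1, 22.6 and 21.6 CPM with vehicle and 14.3, 15.8 and 14.3 CPM in undifferentiated cells. MIZ and vehicle overlapped, with a log2 difference of -0.02 and a 95% interval of -0.17 to 0.13 (adjusted p = 0.782), and both were above undifferentiated cells, by log2 0.56 with MIZ (adjusted p = 3.04e-05) and 0.58 with vehicle (adjusted p = 1.39e-05). Rrm2 counts were 0.578 to 0.622 of Rrm2b counts with MIZ, 0.110 to 0.232 with vehicle and 1.74 to 1.92 in undifferentiated cells. Among genes of the glutaredoxin and thioredoxin systems, Glrx (glutaredoxin) was higher with MIZ than with vehicle (72.1 ± 3.67 against 34.2 ± 2.13 CPM, log2 1.08). Txn1 and Txnrd1, the cytosolic thioredoxin and its reductase, named after their values were seen, were also higher. Txn1 averaged 124 ± 4.77 against 109 ± 0.46 CPM (log2 0.20) and Txnrd1 246 ± 5.12 against 162 ± 14.6 CPM (log2 0.60). The mitochondrial forms of these, Txn2 and Txnrd2, were lower (log2 -0.95 and -1.32), as was Gsr, the glutathione reductase gene (log2 -0.76). Glrx2, the mitochondrial glutaredoxin gene, named after its values were seen, was higher (log2 0.58). Of the 8 genes of this list, which includes Rrm2b, 4 were called higher, 3 lower and Rrm2b neither.

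Tyms, the thymidylate synthase gene, was near its undifferentiated level with MIZ. It (chr5:30058202-30073617) had 11.4, 13.1 and 12.2 CPM with MIZ, 7.16, 6.27 and 6.18 CPM with vehicle and 14.1, 14.9 and 12.9 CPM in undifferentiated cells. The MIZ libraries overlapped with the undifferentiated libraries and not with the vehicle libraries. Tyms was 1.88-fold higher with MIZ than with vehicle (log2 0.91 ± 0.09, adjusted p = 5.49e-06), and its difference from undifferentiated cells was log2 -0.19 with a 95% interval of -0.39 to 0.00277 (adjusted p = 0.0753), called without undifferentiated library 3 (log2 -0.26, adjusted p = 0.0453). Transcripts of 127 genes match stretches of Tyms transcripts, among them the pseudogene Tyms-ps over 935 bases at 93.9% identity, so its values are uncertain where such reads were split or dropped.

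Dck, the salvage kinase for deoxycytidine, deoxyadenosine and deoxyguanosine, ran opposite to the S-phase genes with MIZ. It had 6.36, 5.59 and 6.80 CPM with MIZ, 8.74, 8.48 and 7.89 CPM with vehicle and 14.1, 14.8 and 13.9 CPM in undifferentiated cells. The 3 groups were separate and MIZ was the lowest, 1.34-fold below vehicle (log2 -0.42 ± 0.09, adjusted p = 0.00155) and 2.29-fold below undifferentiated cells (log2 -1.19 ± 0.09, adjusted p = 4.84e-07).

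The thymidine kinases, which belong to the same salvage step, are given with their paralog pair. Tk1, the cytosolic S-phase form, had 1.86, 2.33 and 3.13 CPM with MIZ, 1.5, 1.24 and 1.42 CPM with vehicle and 17.5, 16.0 and 15.0 CPM in undifferentiated cells. It was 1.75-fold higher with MIZ than with vehicle (log2 0.81 ± 0.19, adjusted p = 0.00293) and 6.69-fold below undifferentiated cells, where Rrm2 was 2.05-fold below. Tk2, the mitochondrial form, had 21.6 to 23.0 CPM with MIZ, 19.2 to 21.7 CPM with vehicle and 24.0 to 25.2 CPM in undifferentiated cells, and its difference between MIZ and vehicle was log2 0.13 (95% interval -0.01 to 0.26, adjusted p = 0.081).

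Differentiation with vehicle lowered more genes of the pathway than it raised, but the summed level overlapped between the groups. The 10 genes together summed to 359 to 387 CPM with vehicle and 380 to 395 CPM in undifferentiated cells. Against undifferentiated cells, 6 of the 10 genes were lower with vehicle (Rrm2, Rrm1, Tyms, Dck, Cad and Ctps2) and 2 were higher (Cmpk1 and Dhodh), where 41.5% of all genes tested were called lower and 36.2% higher. Cmpk1 was 2.54-fold higher with vehicle (log2 1.34 ± 0.07, adjusted p = 1.49e-08) and Dhodh 2.22-fold higher (log2 1.15 ± 0.08, adjusted p = 1.95e-07). The drop was log2 -1.10 for Tyms, -0.77 for Dck and -0.30 for Cad, the last with adjusted p = 0.00721. Umps and Ctps did not pass the test, with log2 differences of -0.11 (95% interval -0.25 to 0.03) and -0.16 (95% interval -0.31 to -0.00346, adjusted p = 0.0585). Ctps was called lower in 6 of the 15 alternatives, among them those without vehicle library 1 (log2 -0.24) and without undifferentiated library 2 (log2 -0.20).

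The pathway with MIZ also differed from that of undifferentiated cells. Against undifferentiated cells, 5 genes were higher with MIZ (Ctps, Cad, Dhodh, Umps and Cmpk1), 4 were lower (Dck, Rrm2, Rrm1 and Ctps2) and Tyms did not pass, with 33.7% of all genes tested called higher and 33.3% lower. By their calls, Cad, Umps and Ctps stood above both other groups, Dck below both, and Dhodh, Cmpk1, Rrm1 and Rrm2 between them. The MIZ libraries overlapped with vehicle in Rrm1 and with undifferentiated cells in Cmpk1. Those calls held in 6 of 15 alternatives for Rrm1 and in 10 of 15 for Cmpk1. As a description that uses the vehicle libraries on both sides, the log2 difference between MIZ and vehicle covered 64.1% of the log2 distance from vehicle to undifferentiated cells for Rrm2, 82.6% for Tyms, 23.5% for Rrm1 and 22.8% for Tk1, and 85.6% for Cmpk1 and 70.9% for Dhodh in the downward direction. The 3 comparisons share their libraries and are not independent of each other.

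**Figure D3:**
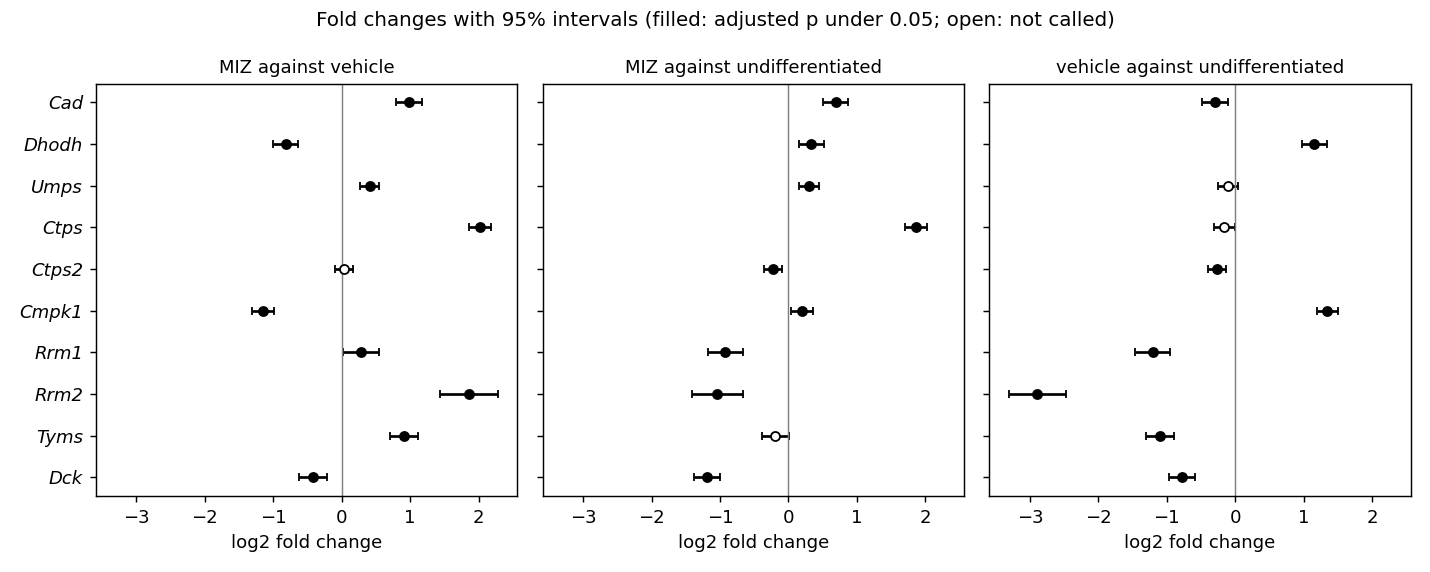
Log2 fold change of the 10 genes (horizontal axis; bars are 95% intervals; filled points passed the test and open points did not) for MIZ against vehicle, MIZ against undifferentiated and vehicle against undifferentiated cells. Ctps lies near 2.02 and 1.86 in the MIZ comparisons and near -0.16 with vehicle, and Rrm2 lies at 1.86, -1.04 and -2.89.

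Within a group the order of levels per kilobase of exon changed as well. With MIZ the highest were Ctps at 72.2 CPM per kilobase, Cmpk1 at 20.2 and Cad at 16.4. With vehicle they were Cmpk1 at 44.8 ± 2.91, Ctps at 17.8 ± 1.94 and Rrm1 at 9.08 ± 1.3, the last within its SD of Ctps2 (8.84), Dhodh (8.40) and Cad (8.27). In undifferentiated cells Rrm1 (21 ± 0.44) and Ctps (19.8 ± 0.84) came first, followed by Cmpk1 (17.6 ± 0.82). Rrm2 was the lowest of the 10 with vehicle, at 1.60 ± 0.60, and Dck the lowest with MIZ, at 2.03 ± 0.20 CPM per kilobase.

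Across the 9 libraries, which share only these 3 groups, the genes fell into sets that moved alike. As a description of log2 CPM over 9 libraries, Pearson's r was 0.957 between Cad and Ctps, 0.924 between Cad and Umps, 0.964 between Dhodh and Cmpk1, 0.933 between Tyms and Rrm2 and -0.982 between Dhodh and Rrm2. Among 11759 genes with at least 5 CPM in a group, those most like Ctps were Aen, a p53-induced nuclease gene (r = 0.999), S100a11, a calcium-binding protein gene (0.998), and Rab2a, a small GTPase gene (0.996). Those most like Cad were Eml4 (0.998), Trp53, the gene of p53 itself (0.996), and Gpr176 (0.996). Those most like Rrm1 were Pola1, the catalytic subunit of DNA polymerase alpha (0.998), Dtl, a substrate receptor of the CUL4 ubiquitin ligase (0.997), and Mamdc2 (0.995), and those most like Rrm2 were St6galnac4 (0.997), Rian (0.995) and Pdgfd (0.995).

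The genes of DNA replication and the cell cycle were set beside Rrm2, Rrm1, Tyms and Tk1. Of 31 replication genes, 14 were higher with MIZ than with vehicle, 5 were lower and 12 did not pass, with a median log2 fold change of 0.27, where 35.9% of all genes tested were called higher. The list summed to 225 to 270 CPM with MIZ, against 196 to 224 CPM with vehicle. Uhrf1, which maintains DNA methylation behind the fork, averaged 7.53 ± 2.11 CPM with MIZ and 2.32 ± 0.30 CPM with vehicle (log2 1.67), and Mcm6 of the replicative helicase 17.0 ± 2.44 and 7.35 ± 0.99 CPM (log2 1.20), while Cdc45, another helicase component, was lower (log2 -1.29). Against undifferentiated cells 29 of the 31 were lower with vehicle and 27 of the 31 with MIZ, and the list summed to 585 to 607 CPM in undifferentiated cells.

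Of 8 markers of cycling cells, 4 were higher with MIZ than with vehicle and 4 did not pass, and their summed level was 39.2, 43.1 and 74.7 CPM with MIZ, 23.5, 30.6 and 41.4 CPM with vehicle and 478, 517 and 521 CPM in undifferentiated cells. Top2a, the topoisomerase of dividing cells, was at 14.2 ± 5.04 CPM with MIZ and 8.28 ± 1.65 CPM with vehicle (log2 0.75). The cycling sum overlapped between MIZ and vehicle, unlike the levels of Rrm2 and Tyms. Library 3 of MIZ was the highest of its group in Rrm1, Rrm2 and Tk1 and in the cycling sum. Vehicle library 1 was the lowest of its group in Rrm1, in Rrm2 and in the cycling sum. Tyms in both groups, and Tk1 with vehicle, did not follow the cycling sum. Vehicle library 1 was the highest of its group in Tyms and Tk1, and Tyms with MIZ was highest in library 2. Of 5 macrophage markers tested, 1 was higher and 1 lower with MIZ than with vehicle, and macrophage sums overlapped between MIZ and vehicle. Of 6 preadipocyte and fibroblast markers, 3 were higher with MIZ than with vehicle (Thy1, log2 3.14, Pdgfra, log2 1.25, and Col1a1, log2 0.75) and 3 did not pass. They summed to 5663 to 7492 CPM with MIZ, 3224 to 4074 CPM with vehicle and 14208 to 15457 CPM in undifferentiated cells, without overlap, and Col1a1 made up most of each sum. The part of cycling cells, macrophages or preadipocytes in the Rrm1, Rrm2 and Tyms results was not tested.

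Of 13 E2F and pocket protein genes, 8 were higher with MIZ than with vehicle and 3 lower. E2f8 and E2f7, atypical E2Fs that repress S-phase genes, averaged 1.57 ± 0.74 and 1.61 ± 0.55 CPM with MIZ, against 0.38 ± 0.18 and 0.74 ± 0.29 CPM with vehicle (log2 1.95 and 1.03). Of the 3 activating members, E2f1 and E2f3, named after their values were seen, were higher (17.2 ± 0.48 CPM with MIZ against 9.50 ± 1.02 CPM with vehicle, log2 0.85, and 36.9 ± 0.62 against 25.1 ± 1.17 CPM, log2 0.55), and E2f2 was lower (0.70 ± 0.27 against 7.62 ± 0.73 CPM, log2 -3.47), as was Rb1, the retinoblastoma pocket protein gene (39.4 ± 3.88 against 80.6 ± 5.14 CPM, log2 -1.03). Of 7 genes that encode regulators of RRM2 and TYMS turnover, 3 were higher, among them Ccnf, the F-box cyclin that targets RRM2 (log2 0.63), and 1 was lower (Fzr1, log2 -0.17).

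Of 13 p53 targets, 8 were higher with MIZ than with vehicle and 5 did not pass. Their median log2 fold change was 0.47, and 35.9% of all genes tested were called higher. The 5 that did not pass, named after their values were seen, were Cdkn1a, Sesn1, Sesn2, Bbc3 and Phlda3. Among them, Cdkn1a averaged 406 ± 17.4 CPM with MIZ and 423 ± 6.73 CPM with vehicle, with overlap (log2 -0.06, adjusted p = 0.255). Eda2r, a death receptor gene, averaged 97.8 ± 3.18 CPM with MIZ and 34.1 ± 3.69 CPM with vehicle (log2 1.52), Aen 113 ± 1.82 and 54.7 ± 3.12 CPM (log2 1.06), Bax 92.1 ± 6.09 and 45.4 ± 3.51 CPM (log2 1.02) and Ccng1, the cyclin G gene, 756 ± 11.7 and 381 ± 9.68 CPM (log2 0.99). Rrm2b, a p53-inducible gene as said above, had a log2 difference of -0.02.

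In the MYC network, Myc, a known activator of Cad, was lower with MIZ than with vehicle (log2 -0.49, adjusted p = 0.000194), without overlap, and is named after its values were seen. Its family member Mycl averaged 53.9 ± 14.6 CPM with MIZ, 1.56 ± 0.07 CPM with vehicle and 1.88 ± 0.26 CPM in undifferentiated cells (log2 5.11 against vehicle, adjusted p = 2.51e-09). Of the 13 genes of this list 2 were higher and 8 lower, with Mlxipl, the carbohydrate-responsive factor of lipid synthesis (log2 -3.81), and the MYC antagonists Mxi1 and Mxd1 (log2 -1.57 and -1.13) among the lower. The list of mTORC1 and MAPK genes, whose kinases activate CAD by phosphorylation, had 6 of 10 genes lower and 1 higher, with Mtor at 97.5 ± 1.97 CPM with MIZ and 216 ± 1.97 CPM with vehicle (log2 -1.15).

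**Figure D4:**
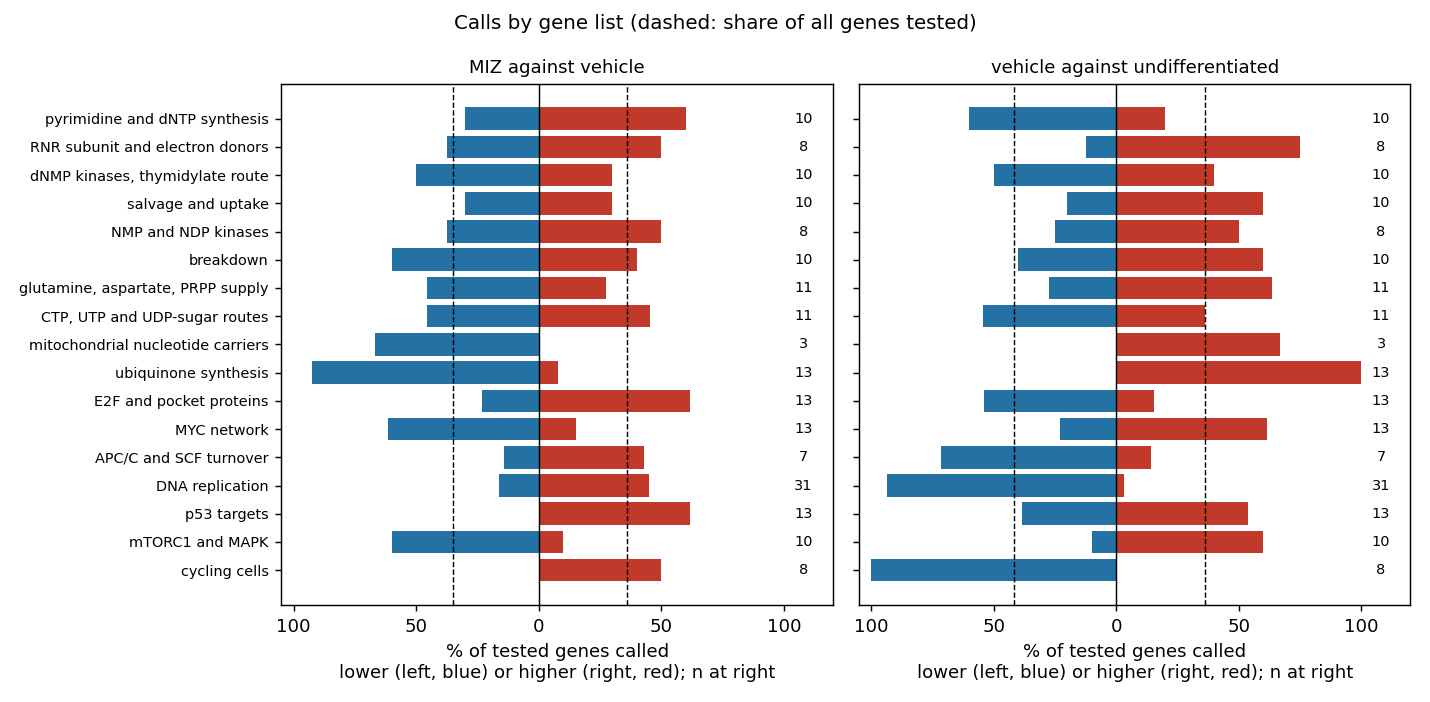
Share of the tested genes of each list that were called higher (right) or lower (left) for MIZ against vehicle and vehicle against undifferentiated cells, with the number tested at the right and dashed lines at the share of all genes tested. Ubiquinone synthesis genes were lower with MIZ in 12 of 13 cases, and DNA replication genes were lower with vehicle than in undifferentiated cells in 29 of 31 cases.

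Genes that feed the pathway also moved in both directions, as did all genes tested, of which 35.9% were called higher and 35.1% lower. Prps2, a PRPP synthetase gene that supplies the ribose for UMPS, averaged 31.4 ± 2.08 CPM with MIZ, 9.48 ± 1.35 CPM with vehicle and 47.0 ± 3.50 CPM in undifferentiated cells (log2 1.71 against vehicle). Glul, the glutamine synthetase gene, averaged 153 ± 18.1 CPM with MIZ, 712 ± 7.85 CPM with vehicle and 77.2 ± 2.48 CPM in undifferentiated cells (log2 -2.22). Got1, the cytosolic aspartate aminotransferase gene, was lower (log2 -1.31). Of the 11 genes of supply, 3 were higher, 5 lower and 3 not called. Such a split, here and in the lists that follow, does not by itself set a list apart from all genes tested.

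Salvage from uridine and cytidine was divided. Uck1, a uridine-cytidine kinase gene, averaged 25.5 ± 1.80 CPM with MIZ, 181 ± 11.1 CPM with vehicle and 20.2 ± 0.90 CPM in undifferentiated cells (log2 -2.83). Slc29a2, an equilibrative nucleoside transporter gene, was also lower (log2 -1.36), and Uprt and Upp2 were higher (log2 0.41 and 1.00). Uck2, also a uridine-cytidine kinase gene and named after its values were seen, did not follow Uck1. It averaged 107 ± 4.31 CPM with MIZ and 97.5 ± 6.04 CPM with vehicle, with overlap (log2 0.14, adjusted p = 0.0463). Of the 10 tested genes of salvage and uptake, 3 were higher, 3 lower and 4 not called, while Slc28a1 and Slc28a3 had too few counts to be tested.

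The steps beside TYMS and DCK were divided in the same way. Dctd, which deaminates dCMP to the dUMP that TYMS uses, averaged 10.2 ± 0.82 CPM with MIZ and 4.99 ± 0.60 CPM with vehicle (log2 1.04), and Dut, which makes dUMP from dUTP, 9.45 ± 0.28 and 7.77 ± 0.34 CPM (log2 0.29). Shmt1 and Shmt2, which supply the one-carbon unit in the cytosol and in mitochondria, were lower (log2 -2.58 and -0.69), with Shmt1 at 2.67 ± 0.35 CPM with MIZ, 15.9 ± 0.90 CPM with vehicle and 3.66 ± 0.29 CPM in undifferentiated cells. Among kinases of nucleoside mono- and diphosphates, Ak3, an adenylate kinase gene of the mitochondrial matrix, was lower (log2 -2.31) and Nme4 was higher (log2 0.85).

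On the side of removal, Samhd1, which cleaves deoxynucleoside triphosphates, averaged 77.9 ± 5.44 CPM with MIZ, 42.2 ± 6.85 CPM with vehicle and 100.5 ± 2.89 CPM in undifferentiated cells (log2 0.89). Dpyd, the entry to pyrimidine catabolism, averaged 2.72 ± 0.86 CPM with MIZ and 12.2 ± 0.49 CPM with vehicle (log2 -2.17), and Nt5e, an ecto-nucleotidase gene, 0.65 ± 0.30 and 6.49 ± 3.73 CPM (log2 -3.32). Of the 10 tested genes of breakdown, 4 were higher and 6 lower. Of 11 genes of phospholipid, sialic acid and UDP-sugar routes, which use CTP, UTP or nucleotides made from them or feed such steps, 5 were higher and 5 lower. Pcyt2 of phosphatidylethanolamine synthesis (log2 -2.49) and Ugp2, which makes UDP-glucose (log2 -1.07), were lower. In phosphatidylcholine synthesis, Pcyt1a was lower, at 64.8 ± 1.93 CPM with MIZ and 86.2 ± 0.79 CPM with vehicle (log2 -0.41). Pcyt1b was higher at a low level, 1.74 ± 0.15 against 0.45 ± 0.15 CPM (log2 1.88). Slc25a33, a mitochondrial carrier of pyrimidine nucleotides, was lower, at 6.94 ± 0.36 CPM with MIZ and 28.7 ± 0.64 CPM with vehicle (log2 -2.05). Slc25a36, another mitochondrial nucleotide carrier, named after its values were seen, did not pass the test. It averaged 83.9 ± 2.11 and 90.2 ± 7.34 CPM, with overlap (log2 -0.11, adjusted p = 0.12).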

How the data were processed

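RNA was measured in 9 libraries, 3 per group, grouped by the treatment and replicate in the labels. Per the study's methods and the submitters' processing notes, the authors trimmed reads with Trim Galore 0.6.7, aligned them with STAR to GRCm38 (mm10) and deposited raw counts per Ensembl gene; the notes also name HTSeq, and the annotation release and strand setting are not given in the sources used here. The methods describe depletion of ribosomal RNA and also poly-A selection. Symbols were assigned to 32158 of 32285 gene IDs.

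A gene was kept where 3 or more libraries had 5 or more counts of it (17173 genes), and these were fitted over all 9 libraries with edgeR 4.0.16 (TMM, quasi-likelihood test, Benjamini-Hochberg adjustment, threshold 0.05) in R 4.3.3, with code tested on simulated data. The study used DESeq2, which was run as an alternative (version 1.42.0), as were other scalings and filters, a replicate block, fits of 6 libraries and omission of each library. Standard errors come from the F statistic. The common biological coefficient of variation was 0.0806. Log2 CPM used a prior count of 2. Positions and exon lengths come from GENCODE M21 (GRCm38), promoters from RefSeq. Copies are transcripts with at least 300 bases at 90% identity (blastn 2.17.0). Libraries of a group differed by more than sampling noise, so none was counted as a duplicate.

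The genes and gene lists were chosen with earlier results of these data known. Named genes are the 10 enzymes, 4 paralogs, from each list up to 4 with the largest difference between MIZ and vehicle among those called without overlap at 1 CPM or more plus up to 2 of the other direction, and the 3 most correlated with each enzyme. Genes said to be named after their values were seen come on top of these. Some genes of the lists are not reported here by name.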

Additional observations from a re-analysis of the deposited data

How the results depend on the processing

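Counts of called enzymes stayed within 1.5 times under all alternatives: 8 to 10 of 10 for MIZ against vehicle, 8 to 10 for vehicle against undifferentiated cells and 8 to 10 for MIZ against undifferentiated cells. The differences of Ctps, Cad, Umps, Rrm2, Tyms, Cmpk1, Dhodh and Dck between MIZ and vehicle passed under all 15 alternatives each, with Ctps between log2 1.95 and 2.16 and Rrm2 between 1.68 and 2.17. Rrm1 kept its call in 6 of the 15. Library totals without TMM moved the median of all genes to log2 0.16 for MIZ against vehicle and -0.25 for vehicle against undifferentiated cells, and upper-quartile scaling moved the second to -0.15. Under library totals Ctps2 was called higher with MIZ than with vehicle (log2 0.18, adjusted p = 0.0275), Umps and Ctps were called lower with vehicle than in undifferentiated cells, Cmpk1 lost and Tyms gained a call for MIZ against undifferentiated cells. The sign turned for values near 0: Ctps2 for MIZ against vehicle without vehicle replicate 1 (log2 -0.000588; range -0.000588 to 0.0811 over the libraries left out in turn), and Rrm2b for MIZ against vehicle under library totals (0.11), under upper-quartile scaling (0.0409) and without MIZ replicate 1 (0.0266; range -0.0874 to 0.0266 over the libraries left out). The log2 ratio of Ctps to Ctps2 for vehicle against undifferentiated cells lay between -0.0122 (without vehicle replicate 1) and 0.1901 (without vehicle replicate 2). That of Cmpk1 to Cmpk2 lay between -0.0943 (without MIZ replicate 3) and 0.621 (without MIZ replicate 1) for MIZ against vehicle, with -0.0409 without vehicle replicate 1, and between -0.5936 (without MIZ replicate 3) and 0.122 (without MIZ replicate 1) for MIZ against undifferentiated cells. The causes of these changes were not tested. The replicate numbers of the labels did not pair the libraries: correlations of deviations between same-numbered libraries lay between -0.045 and 0.063 in 9 pairs. With the replicate block 9 enzymes were called in each comparison, and the added call was Ctps for vehicle against undifferentiated cells (log2 -0.16, adjusted p = 0.0262). The windows of 250 bases before the start alone held CCAAT in 33.8%, GGGCGG in 32.7%, CACGTG in 6.02%, the E2F letters in 0.654% and TTTGAA in 16.0% of cases. Depth limits most the vehicle values of Rrm2 (64 to 223 reads) and Tk1 (40 to 64 reads).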
